A study of Mus musculus with 6 samples.

Results

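Integrin chains, Src family kinases and the adaptor proteins of focal adhesions were examined as a list of 40 genes. The list follows what the gene products are known to do, but was chosen with earlier results of these data known. Of the 40 genes, 38 had a probe set that names a single gene, among 19936 genes tested in all, and Lyn and Ptk2 were not analysed here. The list held 4 integrin alpha chains that bind collagen, 3 that bind laminin, 3 that recognise the arginine-glycine-aspartate (RGD) sequence of fibronectin and vitronectin, the Itga4 and Itga9 chains, 5 beta chains, and 21 measured kinases and adaptors.

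RNA was measured on Affymetrix arrays in a stable line derived from mouse embryonic fibroblasts of the Tet-off type, in which a tetracycline-regulated transactivator is present. The control group comprised 3 RNA samples from cells that were not transfected. The HA-Fbxl10 group comprised 3 from the same line after transfection with an HA-tagged Fbxl10 cDNA together with a hygromycin resistance plasmid, taken from clones selected for expression of the tagged protein. Fbxl10, now Kdm2b, is a histone demethylase that binds unmethylated CpG dinucleotides. Both groups carry the Tet-off background, and only HA-Fbxl10 cells carry the resistance plasmid. No empty-vector group was included, so transfection, drug resistance and clone selection cannot be told apart from Fbxl10 itself. The sources used here name neither the number of clones sampled nor the promoter that drives the cDNA. The submitters call the RNA samples independent without naming separate cultures, so the p-values rest on a spread between samples that may be technical.

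Integrins are pairs of an alpha and a beta chain that span the cell membrane. The alpha chain largely sets which matrix protein is bound, and the beta chain's short inner tail binds talin and kindlin, which switch the receptor on and link it to actin. Clustered integrins recruit focal adhesion kinase and Src kinases, which phosphorylate scaffolds such as paxillin and p130Cas. Fibroblasts depend on these sites for spreading, migration and the pulling of collagen.

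Kdm2b was the check of the labels. Its log2 level was 7.38, 7.45 and 7.28 on the control arrays and 9.77, 9.75 and 9.58 on the HA-Fbxl10 arrays, in the order of the replicate numbers, as for all such values below. The groups lay far apart, with a log2 fold change of 2.33 ± 0.08 (SE; limma adjusted p = 3.31e-07), or 5.03-fold. Array medians ran from 4.69 to 4.79 on the log2 scale, and Pearson correlations over all probe sets were 0.994 to 0.996 within groups and 0.990 to 0.992 between them. Of 10 fibroblast markers 3 fell (Col3a1, Pdgfra and S100a4) and 0 rose, and Thy1 and Lum had mean levels below 5.36, the median of all genes' mean levels. The summed log2 level of the fibroblast markers was 94.3 to 94.9 in control and 92.3 to 93.7 in HA-Fbxl10 cells. One of 9 macrophage markers fell (Cd14), and this list summed to 36.7 to 36.9 in control and 36.4 to 36.6 in HA-Fbxl10 cells. The fibroblast and macrophage sums thus did not overlap between groups, and their part in the results below was not tested. Of the 9 macrophage markers 7 had a mean below that median, and 3 lay below the lower quartile of genes on every array. Their log2 fold changes were negative for 5, with Cd14 at -0.45, and positive for 4. For the 4 lymphocyte, 5 epithelial and 5 skeletal muscle markers the limma calls numbered 0, also at an unadjusted p of 0.05. Of 6 endothelial markers 1 rose (Kdr), and the sums of these 4 lists overlapped between groups. In such bulk samples fewer cells of a type and less RNA per cell cannot be told apart. Precision is limited by there being 3 arrays a group.

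For 31 of the 38 genes RefSeq promoter windows, from 250 bases before to 50 after a transcript start on GRCm38.p6, were at hand. Since the introduced protein binds CpG dinucleotides, the 250 bases before the start are shown for the integrin gene with the largest fall and for the 2 genes with the next largest rises after that of Tln2, which has no window. They read 5′ to 3′ on the gene's strand, with each CG in capitals. The Itga11 stretch is chr9:62677605-62677854 on the plus strand, that of Itgb5 is chr16:33829415-33829664 on the plus strand, and that of Fermt2 is chr14:45530066-45530315 on the minus strand.
Itga11: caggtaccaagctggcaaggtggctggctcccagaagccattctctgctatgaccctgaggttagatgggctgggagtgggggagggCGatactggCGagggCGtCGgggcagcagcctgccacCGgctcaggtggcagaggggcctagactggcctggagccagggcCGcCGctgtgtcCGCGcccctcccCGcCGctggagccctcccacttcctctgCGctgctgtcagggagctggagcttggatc
Itgb5: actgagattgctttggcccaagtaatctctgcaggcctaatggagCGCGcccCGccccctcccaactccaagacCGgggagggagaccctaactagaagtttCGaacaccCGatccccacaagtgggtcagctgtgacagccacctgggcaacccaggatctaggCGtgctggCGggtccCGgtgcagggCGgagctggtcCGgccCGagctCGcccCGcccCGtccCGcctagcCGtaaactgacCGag
Fermt2: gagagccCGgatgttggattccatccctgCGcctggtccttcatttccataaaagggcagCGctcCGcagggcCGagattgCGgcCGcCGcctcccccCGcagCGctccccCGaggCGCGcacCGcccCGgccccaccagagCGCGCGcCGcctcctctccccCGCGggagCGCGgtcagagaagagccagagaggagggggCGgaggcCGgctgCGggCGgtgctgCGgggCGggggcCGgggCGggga

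These stretches held 12 CG dinucleotides before Itga11, 18 before Itgb5 and 31 before Fermt2. Over whole windows of 300 bases, the median count was 21.5 for the 38 windows of the 31 genes, with a range from 1 at a start of Lims1 to 47 at Src, and 7 (quartiles 3 and 20) over all 32851 windows of the table. It was 28 for the 8 windows of genes that rose, 33 for the 3 windows of genes that fell and 16 for the 27 windows of genes that did not pass the test below. High counts thus occurred in windows of genes of either direction. The CArG box, the motif of serum response factor, was searched on both strands and lay in 2 windows, those of Vcl and Fermt2, which is 5.26% against 1.63% of all windows. In Fermt2 it spans bases 204 to 195 before the start. GGAATG, the core of the TEAD motif, was also searched on both strands and was present in 3 windows (Itga10, Itgb1 and Vcl), 7.89% against 14.7% of all windows. The windows of the whole table were not limited to measured genes or matched for expression level, for CG counts or motifs. These counts and matches describe the letters only.

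Of the 38 genes, 8 rose, 4 fell and 26 did not pass an adjusted p of 0.05 (limma, Benjamini-Hochberg over all genes). Over all genes tested 10.5% rose and 10.6% fell, 21.1% in all. Most of the list lies in the brighter part of the array, where calls are commoner. Of its 32 genes with a mean above the median of all genes, 8 rose and 3 fell, while 37% of all genes above that median were called (19.2% rose and 17.8% fell). The share called in the list was thus near that of genes of like brightness. No member changed by 2-fold. The median log2 fold change, HA-Fbxl10 minus control, was 0.07 for the list and -0.00427 for all genes. The 3 arrays of one group lay wholly above or below those of the other for 21 of the 38 genes, and for 36% of all genes. Above the median level the groups did not overlap for 19 of the 32 genes of the list (59.4%) and for 57.9% of all genes. Without control replicate 1 the rises in the list numbered 3, without HA-Fbxl10 replicate 2 they numbered 4 and without HA-Fbxl10 replicate 1 they numbered 5. The falls numbered 2 without control replicate 3 or HA-Fbxl10 replicate 3. Of 17 integrin chains 2 rose and 2 fell, and of 21 kinases and adaptors 6 rose and 2 fell.

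**Figure D1:**
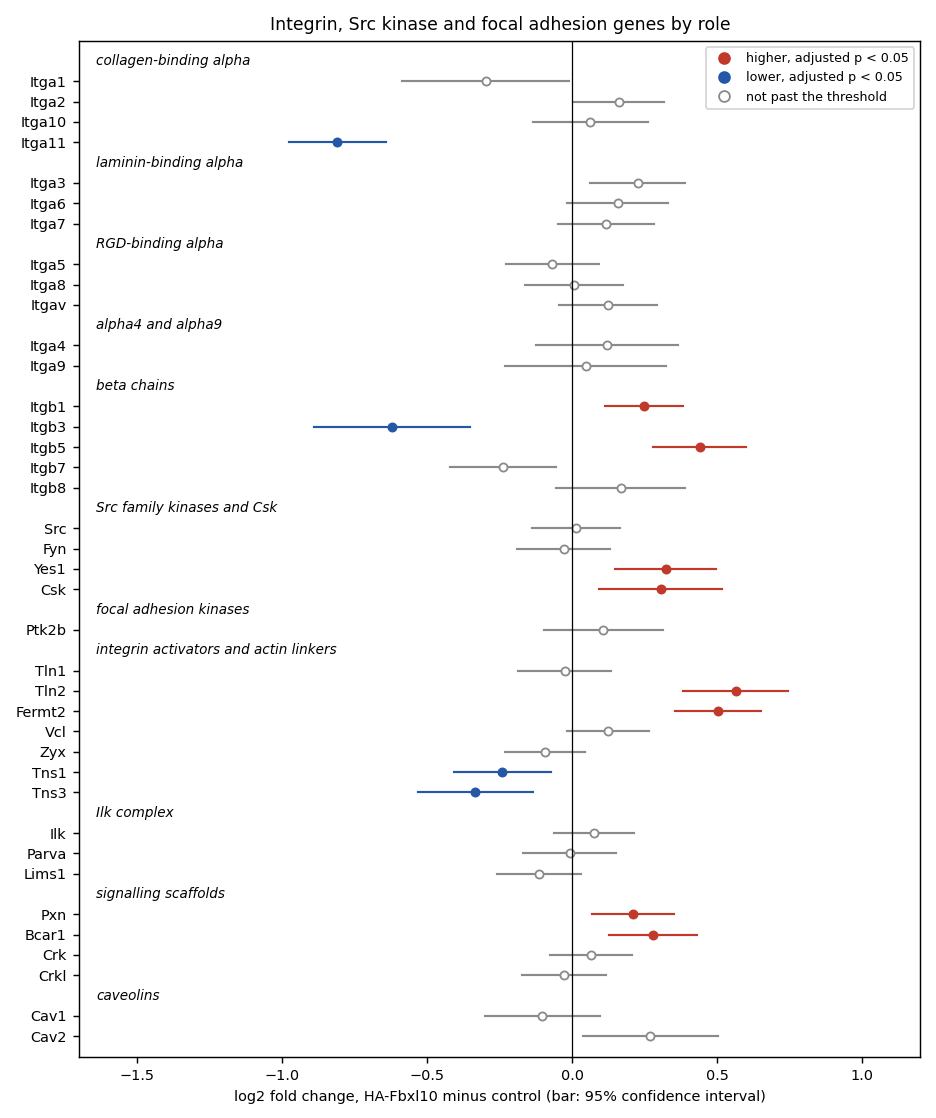
Log2 fold change (HA-Fbxl10 minus control, n = 3 each) of the 38 measured genes, grouped by role, with limma 95% confidence intervals as bars. Filled points passed an adjusted p of 0.05, red for the 8 higher and blue for the 4 lower genes. Itga11 (-0.81) and Itgb3 (-0.62) lie farthest to the left, and Tln2 (0.56) and Fermt2 (0.50) farthest to the right.

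Among the collagen-binding alpha chains Itga11 fell and the other 3 did not pass the test. Itga11, which pairs with Itgb1 as a receptor for fibrillar collagen on fibroblasts, had log2 levels of 7.03, 7.12 and 7.05 in control cells and 6.29, 6.34 and 6.13 in HA-Fbxl10 cells. The groups were separated by more than the spread within either. The fall was 0.81 ± 0.07 on the log2 scale (SE; limma adjusted p = 9.59e-05), or 1.75-fold, and passed the threshold in each of 15 alternative fits. Itga1, the chain of the receptor that prefers basement membrane collagen, was 6.07, 5.92 and 6.31 in control and 5.67, 6.07 and 5.67 in HA-Fbxl10 cells, so that HA-Fbxl10 replicate 2 lay within the control range. Its log2 fold change was -0.30 (95% interval -0.59 to -0.01, limma adjusted p = 0.146), and without HA-Fbxl10 replicate 2 it was -0.43 (adjusted p = 0.0306). The mean levels of Itga2 and of Itga10, the collagen receptor chain of chondrocytes, lay below the median of all genes. Their log2 fold changes were 0.16 (95% interval 0.00305 to 0.32) and 0.06 (-0.14 to 0.26).

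None of the laminin-binding or RGD-binding alpha chains passed the test. Itga3, a laminin receptor chain, came nearest, with log2 levels of 8.22, 8.25 and 8.32 in control and 8.59, 8.51 and 8.38 in HA-Fbxl10 cells. Its arrays did not overlap between groups, and its log2 fold change of 0.23 (95% interval 0.06 to 0.39) had a limma adjusted p of 0.0568. That p ran from 0.00655 to 0.188 over the alternatives, and was 0.0392 without HA-Fbxl10 replicate 3. Itga6, which forms laminin receptors with Itgb1 or Itgb4, and Itga7, a laminin receptor chain of muscle, had log2 fold changes of 0.16 and 0.12. Itga5, the classical fibronectin receptor chain, was 9.24, 9.10 and 9.27 in control and 9.11, 9.20 and 9.10 in HA-Fbxl10 cells, with overlapping groups. Its interval of -0.23 to 0.09 on the log2 scale bounds the size of any change. Itgav, which pairs with several beta chains to bind vitronectin and latent TGF-beta, had a log2 fold change of 0.12 (95% interval -0.05 to 0.29). Itga8, another RGD receptor chain, was dim, with a log2 fold change of 0.01 (-0.16 to 0.18). Itga4 and Itga9, receptor chains for Vcam1 and tenascin, had log2 fold changes of 0.12 and 0.05. Itga4 lay below the lower quartile of genes on all 6 arrays, among the dimmest genes measured.

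Beta chains changed in opposite directions. Itgb5, which pairs with Itgav to bind vitronectin, had log2 levels of 10.07, 10.26 and 10.09 in control and 10.57, 10.62 and 10.55 in HA-Fbxl10 cells. The groups did not overlap, and the rise was 0.44 ± 0.07 (SE; limma adjusted p = 0.00213). Itgb3, the other vitronectin receptor chain that pairs with Itgav, had levels of 5.20, 5.30 and 5.66 in control and 4.71, 4.91 and 4.67 in HA-Fbxl10 cells. It fell by 0.62 ± 0.12 (SE; limma adjusted p = 0.00494) with no overlap of the groups. The fall ran from 0.49 without control replicate 3, its brightest array, to 0.71 without control replicate 1. This gene was dim, with a mean under that median, and its error was larger than that of Itga11.

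Itgb1, the shared partner of the collagen and laminin receptor chains, had levels of 11.80, 11.83 and 11.87 in control and 12.08, 12.10 and 12.07 in HA-Fbxl10 cells. Its rise of 0.25 ± 0.06 (SE; limma adjusted p = 0.0164) was small but larger than the spread within either group. Leaving out control replicate 1 gave an adjusted p of 0.0637, leaving out HA-Fbxl10 replicate 1 gave 0.0505 and leaving out HA-Fbxl10 replicate 2 gave 0.0518, each of which ended the call. Itgb7, a leukocyte chain that pairs with Itga4, had a log2 fold change of -0.24 (95% interval -0.42 to -0.06, limma adjusted p = 0.0676), which passed without control replicate 2 (-0.30, adjusted p = 0.0384). Itgb8, which with Itgav activates latent TGF-beta, had a log2 fold change of 0.17 (-0.05 to 0.39).

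**Figure D2:**
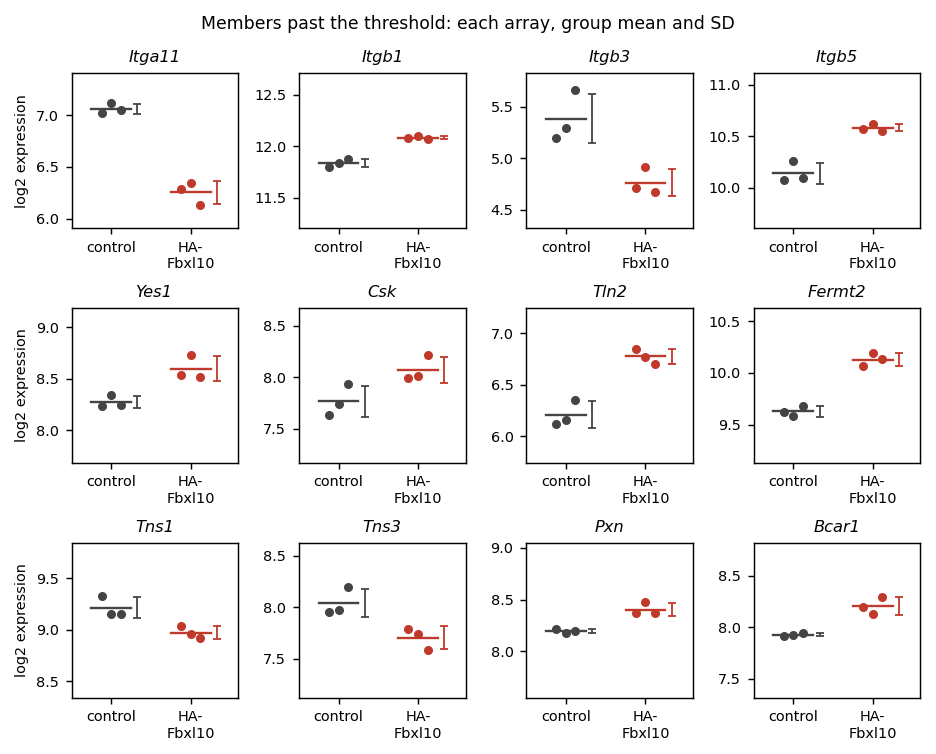
Log2 expression on each of the 6 arrays for the 12 genes that passed the test (points), with the group mean (line) and the SD of 3 arrays (bar beside it). Every panel spans 1.5 log2 units. The groups do not overlap in any panel, and the gap is widest for Itga11 and narrow for Csk and Tns1.

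Of the Src family kinases measured, Yes1 rose and Src and Fyn did not pass the test. Yes1 had log2 levels of 8.23, 8.34 and 8.25 in control and 8.53, 8.73 and 8.52 in HA-Fbxl10 cells, and rose by 0.32 ± 0.08 (SE; limma adjusted p = 0.0158). It missed the threshold when control replicate 1 (0.0612) or HA-Fbxl10 replicate 2 (0.0502) was left out. Src, the founding member of the family, was 7.56, 7.65 and 7.69 in control and 7.59, 7.71 and 7.63 in HA-Fbxl10 cells. These values overlapped throughout, and the interval of its log2 fold change was -0.14 to 0.16. Fyn, which like Yes1 acts beside Src at adhesions, had an interval of -0.19 to 0.13. Csk, which phosphorylates the tail of Src kinases and so holds them inactive, was 7.64, 7.74 and 7.93 in control and 7.99, 8.01 and 8.22 in HA-Fbxl10 cells. The gap between its groups was narrow, and its rise was 0.30 ± 0.09 (SE; limma adjusted p = 0.0473). Leaving out any array other than control replicate 3 ended its call (0.0669 to 0.165). Ptk2b, the kinase related to focal adhesion kinase, had a log2 fold change of 0.11 (95% interval -0.10 to 0.31).

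The 2 largest rises in the list were those of proteins that bind the inner tail of beta chains. Tln2, the less widely expressed of both talins, had log2 levels of 6.12, 6.16 and 6.35 in control and 6.85, 6.77 and 6.70 in HA-Fbxl10 cells. It rose by 0.56 ± 0.08 (SE; limma adjusted p = 0.00107), or 1.48-fold, with no overlap of the groups. Tln1, the talin of most tissues, was 9.30, 9.36 and 9.49 in control and 9.39, 9.38 and 9.30 in HA-Fbxl10 cells, with a log2 fold change of -0.03 (95% interval -0.19 to 0.13). Fermt2, the kindlin of fibroblasts, whose promoter letters are given above, had levels of 9.62, 9.58 and 9.68 in control and 10.06, 10.19 and 10.14 in HA-Fbxl10 cells. Its rise of 0.50 ± 0.07 (SE; limma adjusted p = 0.000674), like that of Tln2, passed in each of 15 alternative fits.

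Linkers to actin moved less. Vcl, the vinculin gene whose product binds talin under force, and Zyx, the zyxin gene, had log2 fold changes of 0.12 (95% interval -0.02 to 0.27) and -0.09 (-0.23 to 0.04). Tns3, a tensin that binds beta chain tails and actin, was 7.96, 7.97 and 8.19 in control and 7.79, 7.74 and 7.58 in HA-Fbxl10 cells. It fell by 0.33 ± 0.09 (SE; limma adjusted p = 0.0236), and the adjusted p was 0.0637 once control replicate 3 was left out and 0.0918 once HA-Fbxl10 replicate 3 was. Tns1 fell by 0.24 ± 0.07 (SE; limma adjusted p = 0.0454) at its brightest probe set, with 9.33, 9.15 and 9.15 in control and 9.04, 8.95 and 8.92 in HA-Fbxl10 cells. Whichever array was left out, Tns1 missed the threshold (0.0515 to 0.154). The other 5 probe sets of Tns1 had log2 fold changes from -0.13 to 0.36, and the mean of all 6 gave 0.03, so the direction of Tns1 depends on the probe set.

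In the complex of Ilk, Parva and Lims1, which ties beta chains to actin, no gene passed the test. The log2 fold changes were 0.07 for the pseudokinase gene Ilk, -0.01 for the parvin gene Parva and -0.11 for the PINCH gene Lims1. Their intervals lay between -0.26 and 0.21. Of the scaffolds, Bcar1, the p130Cas gene, was 7.92, 7.93 and 7.94 in control and 8.20, 8.12 and 8.29 in HA-Fbxl10 cells. It rose by 0.28 ± 0.07 (SE; limma adjusted p = 0.0154), and missed the threshold with control replicate 1 (0.0536) or HA-Fbxl10 replicate 3 (0.0614) set aside. Pxn, the paxillin gene, was 8.21, 8.17 and 8.20 in control and 8.37, 8.47 and 8.37 in HA-Fbxl10 cells. Its rise of 0.21 ± 0.06 (SE; limma adjusted p = 0.0416) missed the threshold whichever array was left out (0.075 to 0.131). Crk and Crkl, the adaptors that bind phosphorylated p130Cas and paxillin, had log2 fold changes of 0.07 and -0.03. Of the caveolin genes, which coat membrane pits and are linked to integrin turnover, Cav1 had a log2 fold change of -0.10 (95% interval -0.30 to 0.09). Cav2 had one of 0.27 (0.04 to 0.50, limma adjusted p = 0.103) and no overlap of its groups.

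Relatives in the list were compared within arrays, in 8 pairs chosen by family after the values were known. The log2 difference between the first and the second gene of a pair was taken on each array and compared between groups, so that a value shows unequal change and no order of levels. Itgb5 moved up relative to Itgb3 by 1.06, Tln2 relative to Tln1 by 0.59 and Itga1 relative to Itga11 by 0.51. Cav2 moved up relative to Cav1 by 0.37, and Yes1 by 0.35 relative to Fyn and by 0.31 relative to Src. For these pairs, and for Crk relative to Crkl (0.09), the arrays of the groups did not overlap, and the exact two-sided permutation p was 0.1, the smallest that 3 arrays against 3 can give (0.114 after adjustment over the 8 pairs). For Tns1 relative to Tns3 the exact permutation p was 0.6. How often pairs of other genes separate so was not counted. Single genes did so for 36% of all genes and for 57.9% of genes above the median level. Of the genes in these pairs only Itgb3 had a mean below that median.

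The 8 genes that rose all lay among chromosomal neighbours whose median change was also upward. The median log2 fold change of up to 30 nearest genes above the median level ran from 0.12 around Pxn on chromosome 5 to 0.26 around Csk on chromosome 9. It was 0.21 around Tln2, 0.19 around Itgb1, 0.18 around Yes1, 0.16 around Itgb5, 0.15 around Fermt2 and 0.14 around Bcar1. Of the 3 genes that fell and had a mean above that level, 2 also lay among neighbours with a median above 0, Itga11 on chromosome 9 (0.27) and Tns1 (0.03), and Tns3 had neighbours at -0.09. Among the 21 genes that did not pass the test and had a mean above that median, neighbours had a median above 0 for 9.

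When a running median of 31 neighbouring genes was taken out on each array, 2 of the 8 rises kept their calls, Tln2 at 0.37 (limma adjusted p = 0.00915) and Fermt2 at 0.32 (0.00673). The log2 fold change of Itgb5 became 0.25 (adjusted p = 0.0558), that of Itgb1 0.05, of Yes1 0.12, of Csk 0.07, of Pxn 0.09 and of Bcar1 0.13, with adjusted p of 0.302 to 0.726 for these last 5. Itga11 moved to -1.05 (4.43e-05) and Tns1 kept its call at -0.26 (0.0482), while Tns3 lost it at -0.24 (0.111). Itgb3, as a dimmer gene, kept its values under this setting. Itga3 at 0.38 (adjusted p = 0.00655), Itga1 at -0.50 (0.014) and Cav2 at 0.33 (0.0319) passed in this fit. With the running median taken out the list thus counted 4 genes higher and 4 lower. When the median of each whole chromosome was taken out instead, 6 of the 12 calls ended. The log2 fold change was then 0.12 for Itgb1, 0.15 for Yes1, 0.09 for Csk, 0.04 for Pxn, 0.15 for Bcar1 and -0.20 for Tns3 (limma adjusted p of 0.153 to 0.743). Itgb5 kept its call there at 0.47 (adjusted p = 0.00226), and Tln2 was at 0.35 and Fermt2 at 0.38. Itga3 at 0.36 (adjusted p = 0.00716), Itga1 at -0.50 (0.0131), Cav2 at 0.39 (0.0238) and Crk at 0.20 (0.039) passed there. With chromosome medians taken out the list thus counted 6 genes higher and 4 lower.

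**Figure D3:**
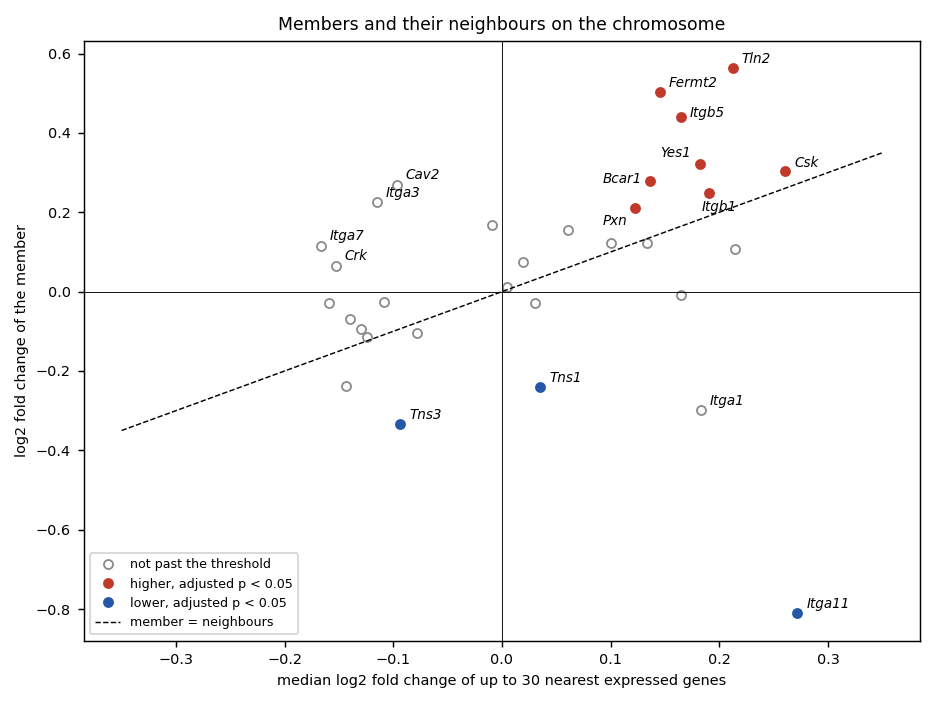
Log2 fold change of each of 32 genes with a mean above the median of all genes (vertical axis) against the median log2 fold change of up to 30 nearest such genes on its chromosome (horizontal axis). Points on the dashed line changed as their neighbours did. Csk, Pxn and Itgb1 lie close to the line, Tln2 and Fermt2 lie well above it, and Itga11 (-0.81 against 0.27) lies far below.

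A second list held further integrin chains, adaptors, signalling proteins and membrane partners of integrins at adhesion sites, 81 measured of 87 listed. It gave 19 rises and 11 falls, and its 37% called compares with 21.1% of all genes. Above the median level 28 of its 59 genes were called (47.5%), against 37% of all such genes. The rises numbered 10 without HA-Fbxl10 replicate 2, and 11 without control replicate 1, control replicate 2 or HA-Fbxl10 replicate 3. Of 9 further integrin chains Itgb2 rose and Itga2b, which pairs with Itgb3 in platelets, fell. Itgb2 was dim, with a mean level of 4.83 and a log2 fold change of 0.35. Of the 9 chains 8 had a mean below the median of all genes. For 3 further Src family kinases the limma calls numbered 0, also at an unadjusted p of 0.05. Of 28 further adaptors 5 rose and 4 fell, and of 26 signalling genes 9 rose and 2 fell. Of 15 integrin partners and regulators 4 rose and 4 fell.

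The largest fall there was that of Tes, the testin gene, whose LIM-domain product binds zyxin, from 8.17, 8.26 and 8.24 to 7.03, 7.12 and 7.08. This is a fall of 1.15 ± 0.06 (SE; limma adjusted p = 5.02e-06), larger than any in the list itself. Arhgef6, an exchange factor for Rac, fell by 0.75 ± 0.12, but its HA-Fbxl10 values of 3.89, 3.77 and 3.65 lie near or below the lower quartile of genes, where RMA compresses differences. Cd47, a membrane partner of Itgb3, fell by 0.72 ± 0.06 and Shc1, an adaptor from receptors to Ras, by 0.58 ± 0.08. Kank1, which binds talin, rose by 0.60 ± 0.08 and Ptpn12, the phosphatase that acts on p130Cas, by 0.51 ± 0.07. The tetraspanin gene Cd9 rose by 0.46 ± 0.07 and Rasa1, a Ras GTPase activator, by 0.44 ± 0.08 (all SE on the log2 scale, limma adjusted p of 0.0033 or less). Neighbours of Shc1 on chromosome 3 had a median of -0.40, and those of Cd47 had a median of -0.28. With the running median taken out the calls of Shc1 (-0.19, adjusted p = 0.134) and Rasa1 (0.19, 0.0588) ended, Cd47 was at -0.43 and Ptpn12 at 0.28, both still past the threshold.

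Genes of the proteins that these receptors bind changed in both directions. Of 33 ligand genes measured, of 36 listed, 10 rose and 7 fell, 51.5% against 21.1% of all genes, and 3 changed by at least 2-fold, as did 0.958% of all genes. Above the median level 16 of 25 ligand genes were called (64%), against 37% of all such genes. These shares are descriptions with no test, since the lists were chosen with results known. Lama5, the alpha chain of a basement membrane laminin, rose from 6.05 ± 0.07 to 7.73 ± 0.04 (SD, n = 3), a log2 fold change of 1.69 ± 0.07 (SE; limma adjusted p = 6.71e-07). Lama2, the laminin alpha chain of muscle and nerve, had levels of 6.22, 6.38 and 6.74 in control and 4.53, 4.49 and 4.41 in HA-Fbxl10 cells, a log2 fold change of -1.97 ± 0.12 (SE). These laminin alpha chains thus changed in opposite directions. Lamb1, a beta chain that joins several laminins, rose by 0.67 ± 0.07. Of 11 laminin and basement membrane genes 4 rose and 1 fell, while the 3 laminin-binding integrin chains all had positive values short of the threshold.

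For collagens, 2 of 8 genes rose and 2 fell. Col3a1, a fibrillar collagen, fell by 0.79 ± 0.07 (SE; limma adjusted p = 6.14e-05), from 10.74, 10.77 and 10.74 to 10.02, 9.99 and 9.86. Col4a1 and Col4a2, named after their values were seen, had log2 fold changes of 0.43 and 0.51, and medians of 0.27 and 0.24 among their neighbours. Of 11 genes of ligands grouped with the RGD-binding receptors 4 rose and 2 fell. This class, with Ccn1 and Ccn2 in it, is set by receptor and does not require the RGD sequence itself. Edil3, an RGD protein that binds receptors of Itgav with Itgb3 or Itgb5, fell from 5.22, 4.89 and 5.26 to 3.10, 3.26 and 3.42, a log2 fold change of -1.86 ± 0.11 (SE). All 3 HA-Fbxl10 values lie below the lower quartile of genes, where RMA compresses differences. Ccn2 and Tnc, matricellular proteins, rose by 0.90 ± 0.06 and 0.80 ± 0.10. Fn1, fibronectin itself, had a log2 fold change of 0.15 (limma adjusted p = 0.195). Of 3 genes listed only as ligands of Itga4 and Itga9 chains 2 fell, with Emilin1 lower by 0.69 ± 0.07 and Vcam1 by 0.20 ± 0.06. Tnc, a tenascin gene whose product is also a ligand of such chains, was counted in the class before and rose. Vcam1 lay near the threshold (limma adjusted p = 0.0386) and is not among the 4 largest falls. Whichever array was left out, falls among the ligand genes numbered 6.

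**Figure D4:**
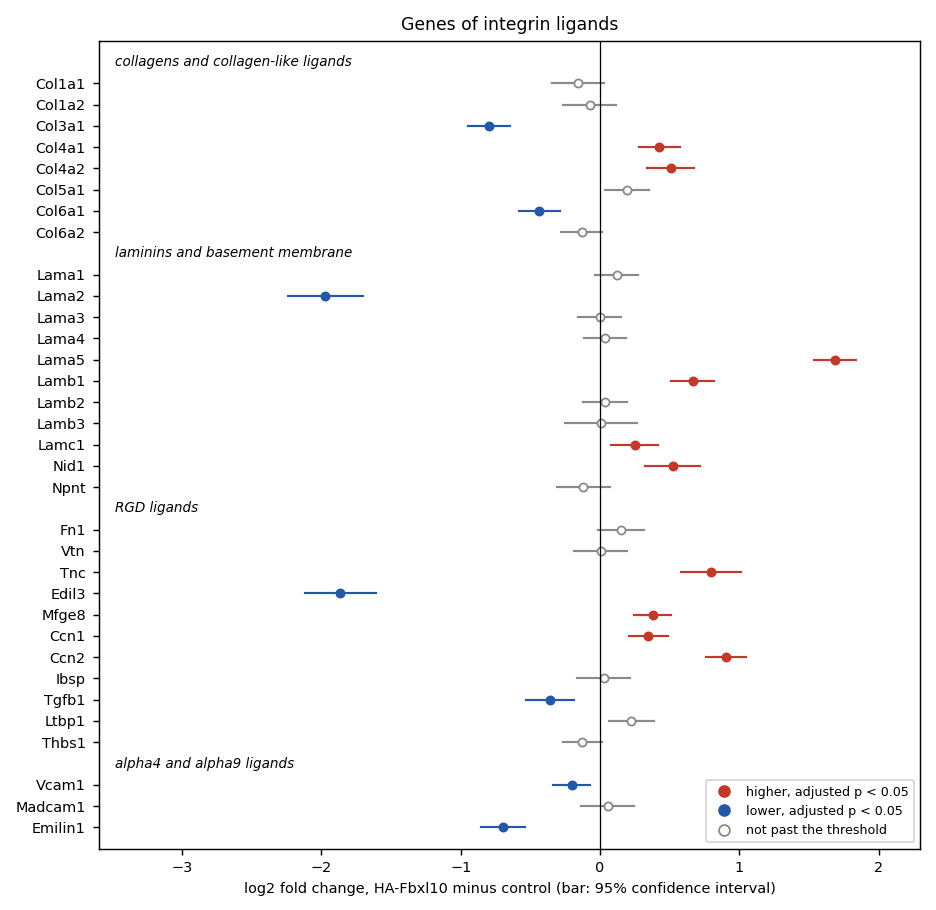
Log2 fold change (HA-Fbxl10 minus control, n = 3 each) of 33 genes for integrin ligands, by the class of receptor that binds them, with limma 95% confidence intervals. Lama5 (1.69) and Lama2 (-1.97) lie at opposite ends. Edil3 (-1.86) is the lowest of the class labelled RGD ligands, which is set by receptor and not by the RGD sequence.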

How the data were processed

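Values are deposited on the log2 scale, 1 per probe set and array (6 arrays), and the submitters' processing notes name RMA without settings. RMA gives arrays like distributions and compresses low values. Of 35556 probe sets, 21789 name 1 gene in the platform annotation, 1621 several and 12146 none, and symbols were updated through Entrez identifiers to the RefSeq table of GRCm38.p6. The brightest single-gene probe set stood for each gene, and no dim gene was filtered out. HA-Fbxl10 was set against control with lmFit and eBayes of limma 3.58.1 (R 4.3.3), two-sided, with Benjamini-Hochberg adjustment over 19936 genes and a threshold of 0.05. The fit was tested on simulated data. Alternatives covered scaling, dim genes, probe sets, variance model, array weights, replicate numbers, single arrays, chromosome medians and a running median of 31 neighbouring genes above the median level. Array batches were not tested, as the table gives none. Members and all lists were chosen with earlier results of these data known. All members are reported, and from each further list kind the 4 largest rises and falls past the threshold, unless the text says otherwise. Figures were drawn with matplotlib 3.10.9.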

Additional observations from a re-analysis of the deposited data

How the results depend on the processing

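Itga11, Itgb3, Tln2 and Fermt2 kept their direction and call in each of 15 alternative fits, with log2 fold changes of -1.05 to -0.75, -0.71 to -0.49, 0.35 to 0.64 and 0.32 to 0.56. Not every fit could alter these values. Each gene has 1 probe set, so averaging probe sets changed none of them. Removing neighbour or chromosome medians left the dimmer Itgb3 as it was. Rises in the list, 8 in the fit above, numbered 4 with the neighbours' running median removed. Of the 8 only Tln2 and Fermt2 were among them, and Itga3 and Cav2 were new. Rises numbered 3 at an adjusted p of 0.01, and 3 to 7 without single arrays. Falls in the list, 4 in the fit above, numbered 2 with array medians subtracted and 2 at an adjusted p of 0.01, and 2 to 4 without single arrays. Rises among further adhesion genes, 19 in the fit above, numbered 11 with the running median removed and 10 at an adjusted p of 0.01, and 10 to 18 without single arrays. Such counts need not hold the same genes. At that stricter threshold 1227 of all genes rose and 1309 fell, against 2097 and 2111. Counts of ligand genes stayed within 1.5 times.

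With the replicate number as a replicate block, 2 genes of the list fell and 10 further adhesion genes rose, and 8 of the 12 called members kept their call. Deviations of same-numbered arrays correlated at 0.01, -0.19 and -0.09. These values show little shared deviation, and whether the numbers pair the samples cannot be told from them.

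Calls of the 12 genes ended in 46 of their 180 comparisons, in 1 of which the direction also turned, that of Tns1 with probe sets averaged (0.032). Genes short of the threshold passed it in 18 comparisons. Their small values changed sign in 35, never past the threshold, and the cause was not tested. With the running median removed, Itga5 was 0.0474, Src -0.004865, Fyn 0.0861, Ptk2b -0.113, Tln1 0.0528, Vcl -0.00963 and Zyx 0.0254. With chromosome medians removed, Src was -0.012, Fyn 0.0727, Ptk2b -0.0176, Tln1 0.0572, Vcl -0.0012, Zyx 0.0232, Crkl 0.000659 and Cav1 0.0126. With array medians subtracted, which moved the median of all genes to 0.05, Fyn was 0.0254, Tln1 0.0282, Parva 0.04505 and Crkl 0.0258. Without single arrays, Itga10 ran from -0.00875 to 0.127, Itga8 from -0.0337 to 0.0602, Itga9 from -0.0754 to 0.148, Src from -0.0247 to 0.0396, Fyn from -0.0814 to 0.00429, Tln1 from -0.0702 to 0.0261, Parva from -0.0547 to 0.0316 and Crkl from -0.0668 to 0.0012.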
